A study of Mus musculus with 4 samples.

Results

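The carbonic anhydrases are a family of zinc enzymes, and 10 of their mouse genes were followed here: Car2, Car3, Car4, Car5b, Car8, Car9, Car11, Car12, Car13 and Car14. The list was drawn up around Car12, a gene already known to be among the strongest risers on these arrays. A gene was represented by the rows of the deposited table that carried its symbol and no other, and by the brightest of them, by mean log2 intensity over the 4 arrays, where there was more than 1. Under this rule 9 of the 10 genes were measured, out of 22180 genes in all. The only row for Car14 also carries the symbol of Aph1a, so Car14 was not analysed here.

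RNA came from mouse fibroblasts of 2 groups with 2 biological replicates each, on Affymetrix Mouse Gene 2.0 ST arrays. The groups are labelled WT, for wild-type mice, and Zip13KO, for mice whose genotype the study writes as Zip13-/-. Zip13 is the product of Slc39a13, a zinc transporter of the ZIP family, and the study's stated interest is zinc balance around the Golgi. The labels used here give no age, organ of origin, passage or treatment, and they leave unsaid if the replicates were independent cultures or animals. The p-values therefore cover only the spread among these 4 samples, part of which may be technical. That spread is mostly pooled over genes. In limma's fit a gene's own replicates gave 2 degrees of freedom and the pooled spread 15.1. The 4 arrays had median intensities from 94.5 to 96.1. Slc39a13 itself read 8.94 and 8.85 log2 units in WT and 8.89 and 8.98 on the arrays labelled Zip13KO, so its values overlapped. Its probes may lie outside the disrupted part, whose place is not known here, so this level does not check the labels. Of 9 fibroblast markers, 8 lay above the array median on all 4 arrays, with lumican (Lum) below it on each. The same held for 12692 of all 22180 genes and for 8 of 9 epithelial and mesothelial markers. Such a count therefore does not tell cell types apart.

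Carbonic anhydrases speed the conversion of carbon dioxide and water to bicarbonate and a proton. The reaction takes place at a zinc ion that the protein holds through histidines, so an active enzyme needs zinc. The isoforms differ in where they work. Car2, Car3 and Car13 are cytosolic, Car5b is mitochondrial, and Car4, Car9, Car12 and Car14 face the outside of the cell at its membrane and pass through the secretory pathway as they are made. Car8 and Car11 are carbonic anhydrase-related proteins that lack the enzymatic activity.

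Car12 rose and Car13 fell by large amounts, Car8 and Car5b rose slightly, and the other 5 measured members did not pass the test. Each difference is Zip13KO minus WT on the log2 scale, with its standard error (SE) from limma's moderated fit over all genes, and a gene counts as past the threshold at an adjusted p under 0.05. Of 9 measured members, 3 were past it upward and 1 downward, where 17.1% of all genes were past it, 7.0% upward and 10.1% downward. The members were chosen with results of these arrays known and Car12 for its rise, so nothing is read from this count. Their median difference was 0.03, against -0.00 over all genes. The WT and Zip13KO arrays did not overlap for 6 of the 9, where this held for 51.5% of all genes.

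**Figure D1:**
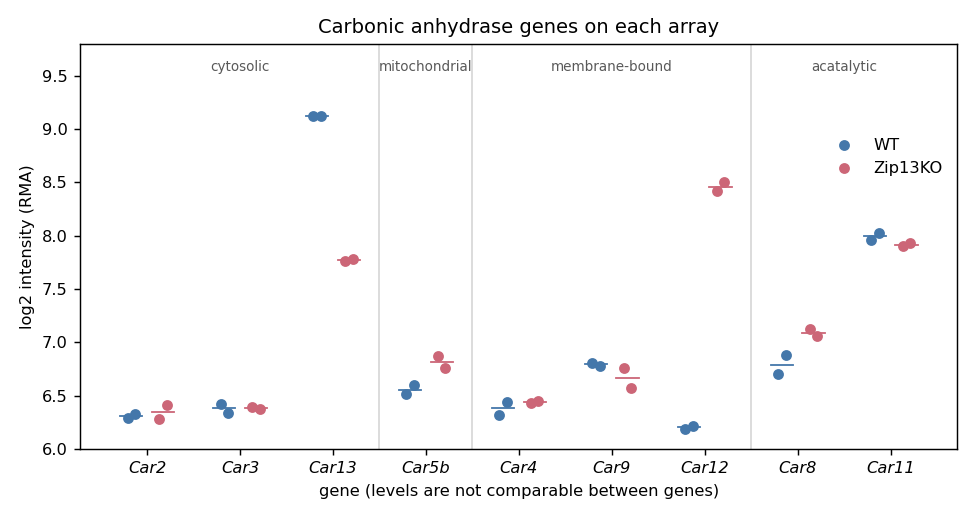
Log2 intensity (vertical axis) of the 9 measured carbonic anhydrase genes (horizontal axis, grouped by where the protein works or by its lack of activity) on each WT array (blue) and each Zip13KO array (red); points are arrays and short lines are group means. Car12 stands at 6.20 in WT and 8.46 in Zip13KO, Car13 at 9.12 and 7.77, and the other genes lie close together in the 2 groups.

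The regions just before the starts of 3 members are shown here. Car12 and Car9 encode the tumour-associated enzymes of the cell surface, both known as genes that hypoxia induces, and Car5b held the most matches to the hypoxia motif among the members with an entry. Each sequence is the 250 bases before the annotated start, from RefSeq on build GRCm38.p6, written 5′ to 3′ on the strand of the gene. Car12 lies at chr9:66713436-66713685 on the plus strand, Car9 at chr4:43506776-43507025 on the plus strand, and Car5b at chrX:164028011-164028260 on the minus strand. Capitals mark matches, on either strand, to the core of the hypoxia response element, searched as ACGTG or GCGTG.
Car12: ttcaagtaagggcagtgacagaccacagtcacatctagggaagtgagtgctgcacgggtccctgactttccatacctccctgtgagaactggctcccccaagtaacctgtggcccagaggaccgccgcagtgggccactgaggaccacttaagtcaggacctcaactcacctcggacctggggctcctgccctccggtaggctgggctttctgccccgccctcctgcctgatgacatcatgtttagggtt
Car9: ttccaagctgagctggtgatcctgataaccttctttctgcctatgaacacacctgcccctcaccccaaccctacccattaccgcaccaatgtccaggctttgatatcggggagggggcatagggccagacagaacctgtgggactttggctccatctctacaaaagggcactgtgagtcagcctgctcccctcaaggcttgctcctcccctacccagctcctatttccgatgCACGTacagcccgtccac
Car5b: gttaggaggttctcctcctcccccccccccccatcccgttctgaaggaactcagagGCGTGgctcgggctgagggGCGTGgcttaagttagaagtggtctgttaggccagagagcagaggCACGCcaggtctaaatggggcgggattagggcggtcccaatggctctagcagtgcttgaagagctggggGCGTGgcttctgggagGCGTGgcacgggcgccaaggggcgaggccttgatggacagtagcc
The Car12 window held 0 such matches, the Car9 window held 1, beginning 18 bases before the start, and the Car5b window held 5. Among all 32851 windows of the same length, 38.6% held at least 1. The core of the metal response element, which the zinc sensor Mtf1 binds, was searched as TGCACNC or TGCGCNC on both strands. None of these 3 windows held it, against 21.4% of all windows. Of the other measured members with an entry, Car11 held 1 match, beginning 220 bases before the start, in 1 of its windows, and Car4 held 0. A match is only a run of letters, and no match says only that the letters are not in this window. RefSeq entries were found for 5 of the 9 measured members, with none for Car13, Car2, Car3 and Car8.

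Among the membrane-bound members, Car12 stood higher in Zip13KO, and Car9 and Car4 did not pass the test. Car12, which acidifies the surroundings of the cell by hydrating carbon dioxide there, read 6.19 and 6.21 log2 units on the WT arrays and 8.42 and 8.50 on the Zip13KO arrays. On the linear scale these are intensities of 73.0 and 74.1 in WT and 342 and 362 in Zip13KO. The level lay below the array median on both WT arrays and above it on both Zip13KO arrays. With WT this dim, the size of the difference could be compressed by background. The difference was 2.26 (SE 0.08), which is 4.78-fold, with a gap between replicates of 0.02 in WT and 0.08 in Zip13KO. Of all genes, 11 rose by at least as much, Car12 among them. Since Car12 was picked for this rise, the values are a description and no p is given.

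Car9, the other hypoxia-induced enzyme of the cell surface, did not pass the test. It read 6.81 and 6.78 in WT and 6.76 and 6.57 in Zip13KO. Its WT arrays lay just above its Zip13KO arrays without overlap, but the difference of -0.13 (SE 0.09) was smaller than the spread between the Zip13KO arrays, at 0.19 (limma adjusted p = 0.395, 95% interval -0.31 to 0.05). Car9 had a second, dimmer row that the rule left out, with a mean of 6.08 against 6.73 for the row used. That row read 6.09 and 6.11 in WT and 6.06 and 6.08 in Zip13KO, a difference of -0.03.

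Car4, which is tied to the outer membrane by a lipid anchor, read 6.32 and 6.44 in WT and 6.43 and 6.45 in Zip13KO. These values overlapped and lay below the median of every array. The difference was 0.06 (SE 0.08, limma adjusted p = 0.745, 95% interval -0.11 to 0.23).

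Among the cytosolic members, Car13 fell and the others did not pass. Car13, an active enzyme found in many tissues, read 9.12 on both WT arrays and 7.76 and 7.78 on the Zip13KO arrays. All values lay above the array median, and the replicates of a group agreed within 0.02. The difference was -1.36 (SE 0.07), which is 2.56-fold lower (limma adjusted p = 2.37e-10). Of all genes, 82 fell by at least as much, Car13 among them, which is 0.37% of the genes tested.

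Car2, the widespread and very fast cytosolic enzyme, read 6.29 and 6.33 in WT and 6.28 and 6.41 in Zip13KO. The groups overlapped, with a difference of 0.03 (SE 0.08, limma adjusted p = 0.876, 95% interval -0.14 to 0.21). Car3, a slow enzyme abundant in muscle and fat, read 6.42 and 6.34 in WT and 6.39 and 6.37 in Zip13KO, also with overlap. Its difference was -0.00 (SE 0.08, limma adjusted p = 0.983). The dimmer row of Car3, with a mean of 5.58 against 6.38 for the row used, read 5.62 and 5.49 in WT and 5.65 and 5.55 in Zip13KO. Car2 and Car3 lay below the array median on all 4 arrays, as Car4 did, so a change in them could be compressed by background.

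Car13, Car1, Car3 and Car2 follow each other in this order among the measured genes of chromosome 3 in the RefSeq annotation. The 3 others did not pass the test, and a difference in response between neighbours was not tested. Car1, best known from red blood cells, read 5.99 and 5.89 in WT and 5.95 and 6.08 in Zip13KO, a difference of 0.08 (SE 0.08, limma adjusted p = 0.654). Of the 10 measured genes nearest to Car13, 5 on each side, 1 fell and 0 rose: the gene next to Car13 on the other side, Rbis, was at -0.38 (limma adjusted p = 8.86e-04). A further neighbour on that side, Lrrcc1, was at -0.26 (limma adjusted p = 0.0596), and these were the 2 of 10 with an unadjusted p under 0.05. Both were named after their values were seen. Among all genes, 17.1% were past the threshold and 25.9% were at an unadjusted p under 0.05, so nothing is read from these counts. Of the 10 measured genes nearest to Car12 on chromosome 9, 0 were past the threshold in either direction in limma, with 0 at an unadjusted p under 0.05. Their differences ran from -0.14 to 0.16.

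The mitochondrial and the acatalytic members changed little. Car5b, which supplies bicarbonate inside mitochondria, read 6.51 and 6.60 in WT and 6.87 and 6.76 in Zip13KO. The Zip13KO arrays lay above the WT arrays, and the difference was 0.26 (SE 0.08), which is 1.2-fold (limma adjusted p = 0.0337). Car8, a partner of the inositol trisphosphate receptor, read 6.70 and 6.88 in WT and 7.12 and 7.06 in Zip13KO. It too lay higher on each Zip13KO array, by 0.30 (SE 0.09), or 1.23-fold (limma adjusted p = 0.0211). The gap between its WT replicates was 0.18. These small rises depended on single arrays. Without WT replicate 1 the adjusted p was 0.204 for Car5b and 0.247 for Car8, without Zip13KO replicate 1 it was 0.196 and 0.0746, and with every row of the table in the fit it was 0.157 and 0.145.

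Car11, an acatalytic member that is secreted, read 7.96 and 8.03 in WT and 7.90 and 7.93 in Zip13KO. It lay above the array median throughout and did not overlap between the groups. The difference of -0.08 (SE 0.08) was about the size of the gap between the WT arrays, 0.07, and did not pass (limma adjusted p = 0.625, 95% interval -0.24 to 0.08).

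**Figure D2:**
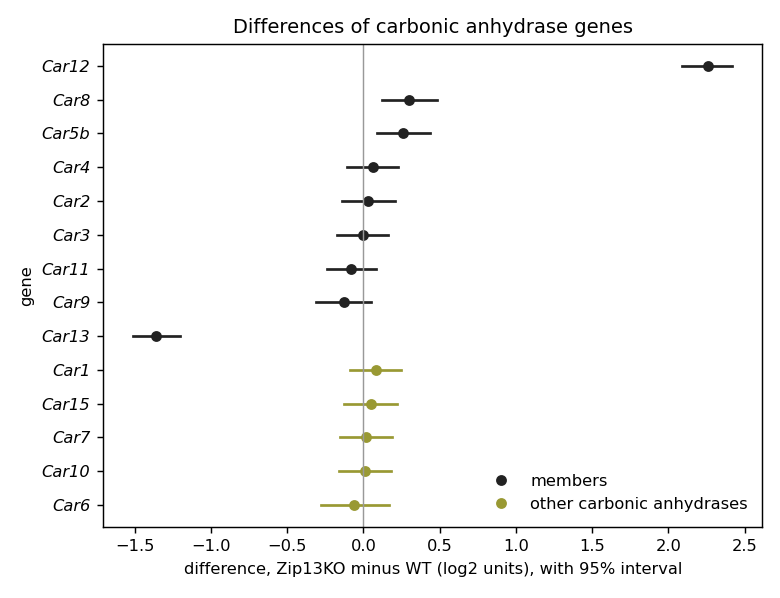
Difference between Zip13KO and WT (horizontal axis, log2 units) for the 9 measured members (black) and 5 further carbonic anhydrases (olive), 1 gene per line; points are estimates and bars are 95% intervals of the moderated fit. Car12 at 2.26 and Car13 at -1.36 stand apart, Car8 and Car5b lie just above 0, and the intervals of the other 10 genes include 0.

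The rest of the family did not pass. Car1, Car6, Car7, Car10 and Car15 had differences from -0.06 to 0.08, and 0 of 5 were past the threshold in limma, with 0 at an unadjusted p under 0.05. The shares of all genes were 17.1% and 25.9%, so little can be read from 0 of 5. Car6, the secreted enzyme of saliva, had the widest WT spread of the family, at 6.94 and 7.36, against 7.09 and 7.10 in Zip13KO. Car5a shares its row with another gene and was not analysed here. Over the 14 carbonic anhydrases with a row of their own, Car12 and Car13 were the 2 whose differences exceeded 1 log2 unit.

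**Figure D3:**
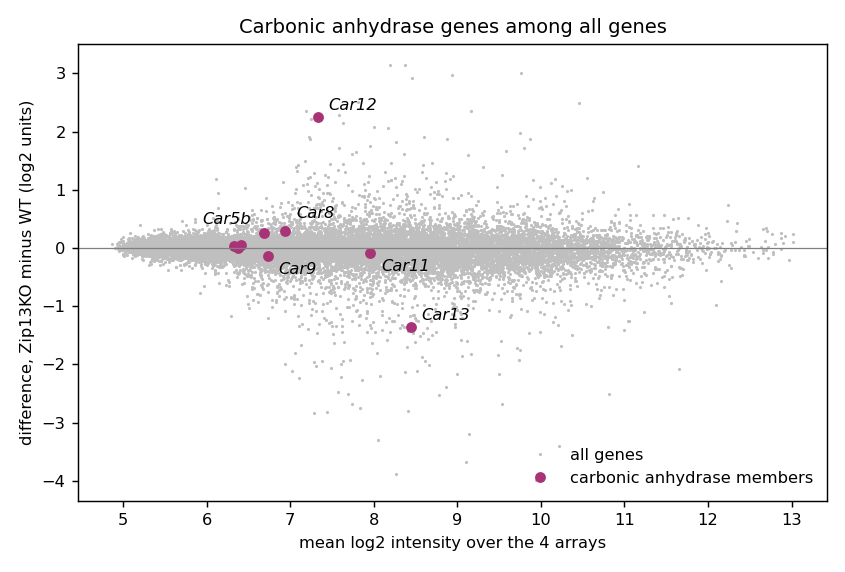
Difference between Zip13KO and WT (vertical axis, log2 units) against mean log2 intensity over the 4 arrays (horizontal axis) for all 22180 genes (grey), with the 9 measured carbonic anhydrases in purple. Car12 at 2.26 lies near the upper edge of the cloud and Car13 at -1.36 below it, while Car2, Car3 and Car4 lie at the dim end near 0.

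The genes whose pattern over the 4 arrays lay closest to that of Car12 were sought by the Euclidean distance between log2 values, each gene centred on its own mean. The galectin-binding protein Lgals3bp was nearest, at a distance of 0.102, reading 8.01 and 7.97 in WT and 10.30 and 10.38 in Zip13KO. The cytokine Il33 followed at 0.122, with 6.09 and 6.20 against 8.38 and 8.33. The class I antigen gene H2-K1 (0.214), the RNA-binding protein Khdrbs3 (0.215) and the cation exchanger Slc24a3 (0.223) completed the nearest 5. With 4 arrays in 2 groups, this likeness mostly restates that these genes rose by nearly the same amount, from 2.06 to 2.35.

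Families that include transporters of the products of the reaction were read next, though not every listed gene carries bicarbonate or protons. Of 18 measured genes listed as bicarbonate and anion exchangers by family, 1 rose and 2 fell (16.7%, beside 17.1% of all genes). Their median difference was -0.01. Slc4a8, a sodium-driven chloride bicarbonate exchanger, fell by 0.61 (SE 0.08, limma adjusted p = 3.05e-05), Slc4a11 rose by 0.45 (SE 0.08), and the anion exchanger Slc4a2 fell by 0.27 (SE 0.08). Slc4a2 did not pass without WT replicate 1 (limma adjusted p = 0.341), without Zip13KO replicate 1 (0.142) or with every row fitted (0.181). Of 16 genes listed as proton and lactate transporters or their partners, 1 rose and 0 fell in limma (6.25%). In either direction 3 were at an unadjusted p under 0.05, beside 25.9% of all genes. The riser was the lactate carrier Slc16a1, from 10.17 ± 0.05 to 10.48 ± 0.00 (SD, n = 2 each).

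Genes of the hypoxia pathway, which is known to induce Car9 and Car12, included calls in both directions. Of 10 regulators, 1 rose and 3 fell, which is 40.0% past the threshold beside 17.1% of all genes. Brighter genes passed more often. Of 13819 genes above the array's median on 2 or more arrays, fitted alone, 3978 passed. Of the 10 regulators 9 lay above it on all 4 arrays, so 17.1% is a low yardstick here and for the bright lists below. Egln3, an oxygen-sensing hydroxylase that hypoxia also induces, rose from 6.76 ± 0.07 to 8.20 ± 0.04 (SD, n = 2 each), a difference of 1.45 (SE 0.08, limma adjusted p = 2.83e-10). The oxygen-regulated factor Hif1a fell by 0.41 (SE 0.07), and by 0.26 as the mean of its rows. Its partner Arnt fell by 0.46, and Arnt2 by 0.45, which did not pass with every row fitted (limma adjusted p = 0.0546).

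Of 10 measured hypoxia targets other than these, 3 rose and 3 fell (60.0%, beside 17.1% of all genes), with a median difference of -0.07. All 10 lay above the array median on every array. Pdk1, which holds pyruvate back from oxidation inside mitochondria, rose by 0.50 (SE 0.09), and Ndrg1 rose by 0.41 (SE 0.08). The secreted peptide Adm fell by 1.95 (SE 0.10, limma adjusted p = 5.89e-11), and the glucose transporter Slc2a1 fell by 0.35 (SE 0.06). As the means of their rows, Pdk1 was at 0.29, Ndrg1 at 0.25 and Slc2a1 at -0.19, the last not past the threshold (limma adjusted p = 0.105).

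Of the genes that handle zinc, 3 of 26 were higher and 2 lower (19.2%, beside 17.1% of all genes), with a median difference of -0.03. The importer Slc39a10 rose by 0.55 (SE 0.08), and the metallothionein Mt2 rose by 0.43 (SE 0.08). The remaining riser was the metallothionein Mt1, at 0.25 (SE 0.06, limma adjusted p = 0.00748). Slc39a7, a transporter that moves zinc out of the endoplasmic reticulum, fell by 0.38 (SE 0.07), and the zinc sensor Mtf1 fell by 0.29 (SE 0.07). With every row fitted Mt2 and Mtf1 did not pass (limma adjusted p = 0.0568 and 0.0627), nor did Mtf1 without WT replicate 1 (0.0519).

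Other zinc enzymes were read in a pair of lists. Of 15 measured at the cell surface or in the secretory pathway, 2 rose and 3 fell (33.3%, beside 17.1% of all genes), with a median of 0.01. The nucleotide pyrophosphatase Enpp3 fell from 8.33 ± 0.01 to 6.70 ± 0.06 (SD, n = 2 each), a difference of -1.63 (SE 0.08, limma adjusted p = 4.90e-11). Carboxypeptidase E (Cpe) fell by 0.63 (SE 0.06). The sphingomyelinase Smpd1 fell by 0.31 and the endopeptidase Mme rose by 0.28. Both lost the call with every row fitted (limma adjusted p = 0.084 and 0.136) and without WT replicate 1 (0.111 and 0.166), and Mme also without Zip13KO replicate 2 (0.148). Of 14 inside the cell, 2 rose and 4 fell (42.9%), with a median of -0.00. The aminoacylase Acy1 rose by 0.51 and the alcohol dehydrogenase Adh7 by 0.47, while cytidine deaminase (Cda) fell by 0.50 and the superoxide dismutase Sod1 by 0.40 (SE from 0.07 to 0.09).

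**Figure D4:**
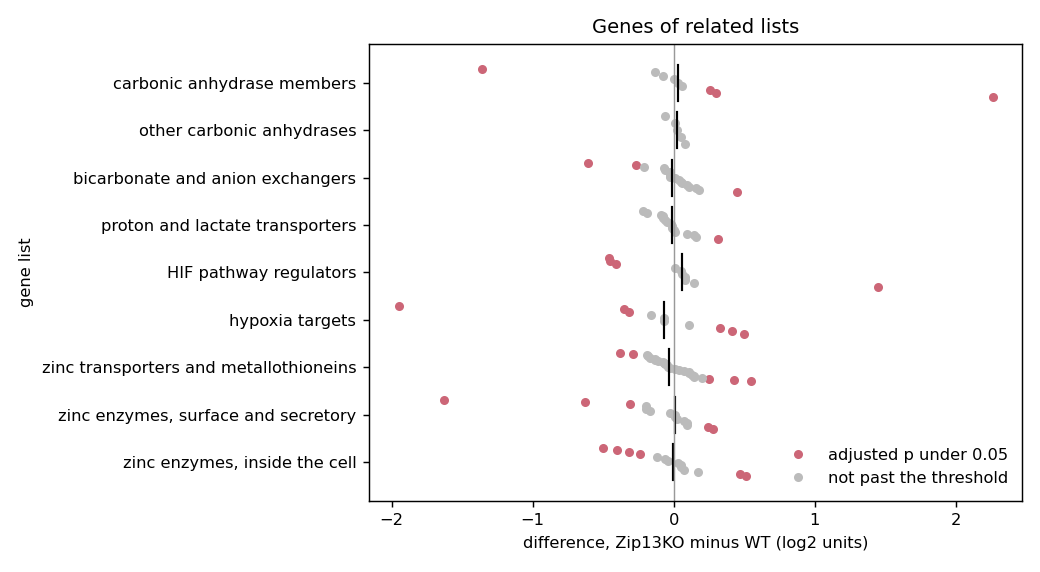
Difference between Zip13KO and WT (horizontal axis, log2 units) for each measured gene of 9 lists (vertical axis); red points are past an adjusted p of 0.05, grey points are not, and black lines are list medians. The medians lie between -0.07 and 0.05, while single genes such as Car12, Egln3, Adm and Enpp3 lie beyond 1 log2 unit.

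Several carbonic anhydrases are markers of other cell types, so markers of such cells were read beside them. Mesothelin (Msln), of mesothelial cells, rose by 2.97 on the arrays where Car12 rose. It was the only 1 of 9 epithelial and mesothelial markers to pass (11.1%, beside 17.1% of all genes). The mesothelial markers Upk3b and Wt1 were at -0.02 and 0.04. The summed intensity of that list was 1261 and 1200 in WT and 2376 and 2450 in Zip13KO. Krt14 lay below the median of every array, while 8 of the 9 lay above it on all 4. Without Msln the other 8 summed to 1077 and 1035 in WT and 1042 and 1052 in Zip13KO, so Msln carried the difference in the sum. Whether such cells had a part in the rise of Car12 was not tested. In such bulk RNA, a change in the share of a cell type and a change in RNA per cell cannot be told apart.

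For Car2 the related lists are those of macrophages and osteoclasts, where 1 of 7 markers rose and 2 fell (42.9%, beside 17.1% of all genes). Their summed intensity was 731 and 676 in WT and 705 and 659 in Zip13KO, and Ptprc, Adgre1, Acp5 and Calcr lay below the median of every array. Cd68 rose by 0.40, Cd14 fell by 0.32 and Csf1r fell by 0.26, none of which passed with every row fitted (limma adjusted p = 0.31, 0.0896 and 0.184). Cd68 was at 0.13 without WT replicate 2 (limma adjusted p = 0.562) and at 0.66 without WT replicate 1, and it did not pass with robust variance (0.159). Cd14 did not pass without Zip13KO replicate 2, nor did Csf1r without that array or WT replicate 1.

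Endothelial cells carry Car4, fat and muscle cells Car3, and erythroid cells Car1 and Car2. Of 5 endothelial, 5 adipocyte and 5 skeletal muscle markers, 0 were past the threshold in limma, beside 17.1% of all genes. In each list 1 was at an unadjusted p under 0.05, beside 25.9% of all genes. These were Cdh5 at 0.20, Fabp4 at -0.18 and desmin (Des) at 0.23. Desmin passed without the trend in the variance model (limma adjusted p = 0.048) and with the crossed pairing of replicates (0.0386). Summed intensities ranged over 441 to 442 in WT and 466 to 470 in Zip13KO for the endothelial list, 459 to 471 and 443 to 461 for the adipocyte list, and 815 to 876 and 795 to 880 for the muscle list. Kdr, Tek and Tie1, Fabp4 and Cidec, and Des lay below the median of every array. Of 2 erythroid markers measured, Epor rose by 0.27, with the list summing to 200 and 202 in WT and 235 and 203 in Zip13KO, and this did not pass without WT replicate 1 (limma adjusted p = 0.334), without Zip13KO replicate 1 (0.263), after a further quantile normalization (0.0511) or with every row fitted (0.222). Of 2 Schwann cell markers 0 passed in limma, with 0 at an unadjusted p under 0.05, the closest being S100b at -0.06, and their sum was 456 and 425 in WT and 443 and 405 in Zip13KO. Among the 9 fibroblast markers 1 rose and 4 fell (55.6%, beside 17.1% of all genes). Their intensities summed to 16247 and 15425 in WT and 12586 and 13115 in Zip13KO. Pdgfra rose by 1.04, and Pdgfrb (-0.92), Col1a1 (-0.89) and Col1a2 (-0.46) fell on the arrays where Car13 fell. Their part in these differences was not tested.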

How the data were processed

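Total RNA was hybridised to 4 arrays, 2 per group, grouped by genotype in the labels. The deposited table holds linear intensity values. The submitters' processing notes name Affymetrix Expression Console and RMA, with no version. Which annotation was used, and at which level RMA summarised the probes, is not given in the sources used here. Because RMA evens array distributions, it hides any change common to most genes. Values ran from 21.8 to 10826, and log2 was taken with no pseudocount.

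Of 41345 rows, 23521 had 1 gene symbol in the platform annotation, 1814 had several and 16010 were unnamed here. By gene ID, 23328 of those with 1 symbol were found in RefSeq (GRCm38.p6), which changed 0 symbols. The brightest row stood for a gene, which gave 22180 genes, unfiltered. Limma 3.58.1 in R 4.3.3 (lmFit, eBayes with trend, two-sided) was followed by Benjamini-Hochberg adjustment over all genes. Plots used matplotlib 3.10.9. The fit was tested on simulated data.

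The members and lists were chosen with earlier results of these data known. Named are all members, the 5 other family genes measured, Slc39a13, up to 4 genes per list past the threshold with the largest difference (or the smallest p), and the 5 nearest to Car12. Some further genes, such as Rbis, Lrrcc1 and Mt1, were named after their values were seen. The alternatives tried were a replicate block, a filter for genes brighter than the array's median on 2 or more arrays, quantile normalization, median centring, no trend, robust variance, the mean of rows, every row fitted, a pseudocount of 16, and each array left out. A group left with 1 array borrows its spread from the other group.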

Additional observations from a re-analysis of the deposited data

How the results depend on the processing

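The fall of Car13 and the non-calls of Car9 and Car11 kept their direction and side of the threshold under all 14 alternatives, though with an array left out Car9 ranged from -0.23 to -0.035 and Car11 from -0.11 to -0.043. Car12 rose by 2.22 to 2.30 under 13 of 14, and by 2.04 with a pseudocount of 16, which shrinks differences of dim genes. Several of these alternatives could not move it. The replicate blocks, the filter, no trend, robust variance and every row fitted change only the SE and the adjusted p of a difference. The mean of rows leaves Car12 as it is, since it has 1 row. Car12 passed the filter only through its Zip13KO arrays. Fitting every row of the table brought the members past the threshold from 4 to 2, genes from 3786 to 1806 and genes of the related lists other than markers from 30 to 18. Car5b (0.26) and Car8 (0.30) did not pass then. With an array left out, the members past the threshold numbered 2 to 4, all genes 2921 to 3808, Car5b ranged from 0.21 to 0.32 and Car8 from 0.21 to 0.39. Neither passed without WT replicate 1 or Zip13KO replicate 1. Differences near 0 changed sign: Car3 was at 0.022 as the mean of its rows, and with an array left out Car3 ranged from -0.045 to 0.036, Car4 from -0.00057 to 0.12 and Car2 from -0.028 to 0.096. The filter on dim rows removed Car2, Car3 and Car4, which have no value there, and Car14 had none under any setting. The replicate number as a block left 4 members and 3364 genes past the threshold. Deviations of same-numbered arrays correlated at -0.158, so the crossed pairing was added after the data were seen, with 5208 genes and 4 members. So few pairs cannot settle a pairing. The number of arrays limits precision, and dim genes have compressed differences.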
